A study of Mus musculus with 4 samples.

Results

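Genes of the complement system were examined in the tissue around the mouse femoral artery, which is mainly perivascular adipose tissue (PVAT). The set names 9 genes, the 3 chains of C1q (*C1qa*, *C1qb*, *C1qc*), the protease gene *C1s*, the central components *C3*, *C4b* and *Cfb*, and the anaphylatoxin receptor genes *C3ar1* and *C5ar1*. Of these, 8 were row names in the table of 12661 genes, and *C1s* was found there as *C1s1*, a symbol for which RefSeq lists *C1s* as a synonym. *C1s1* is described beside the 8 genes but is not in their counts. The libraries came from wild type C57BL/6 female mice, ovariectomized and labelled as 11 weeks of age, so that loss of ovarian function was shared by both groups. In the injury group a wire of 0.38 mm was inserted into the femoral artery, and the sham group had a sham operation that the labels do not describe further. Tissue was taken 48 h later, with 2 libraries per group, each made from 480 ng of total RNA. The labels do not say whether 1 animal or a pool gave each library, so the p-values measure the spread between these libraries.

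Complement is a cascade of plasma and tissue proteins that marks particles for uptake and calls in leukocytes. In the classical pathway, C1q binds to antibody or to damaged cells and activates the proteases C1r and C1s, which cleave C4 and C2. All pathways meet at C3, and factor B, encoded by *Cfb*, amplifies C3 cleavage in the alternative pathway. The fragments C3a and C5a signal through the receptors encoded by *C3ar1* and *C5ar1*. In tissues, C1q is known as a product of macrophages, whereas C3, C4, C1r and C1s are also made by fibroblasts and adipocytes.

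The deposited values are signed decimals on a log-like scale, and neither its base nor the reference against which each gene was set is given. A value was therefore used to compare libraries for 1 gene and not to say which gene is more abundant, and differences (injury minus sham) are given in deposited units and not as fold changes. The values of all genes run from -2.27 to 6.45. The median over all genes of the difference between the groups was 0.0085 units, and sequencing depth is unknown. Groups were compared with limma, which pools the spread over genes, and a gene was called when its Benjamini-Hochberg adjusted p-value over all 12661 genes was under 0.05. In bulk tissue, fewer cells of a type and less RNA per cell cannot be told apart.

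After injury the 3 C1q chains and both anaphylatoxin receptors rose, so that 5 of the 8 genes were called, all of them higher, against 7.43% of all genes called in either direction and 3.76% called higher. No gene of the 8 was called lower by limma, against 3.67% of all genes, although *C3* and *C4b* were lower at an unadjusted p-value under 0.05, as were 14.8% of all genes. In the same 5 genes both injury libraries lay above both sham libraries (31.6% of all genes), and in 2 genes, *C3* and *C4b*, both lay below (30.3% of all genes), which as a share of the 8 is no more than the background. *Cfb* overlapped between the groups. The median difference of the 8 genes was 1.21 units, against 0.0085 over all genes.

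**Figure D1:**
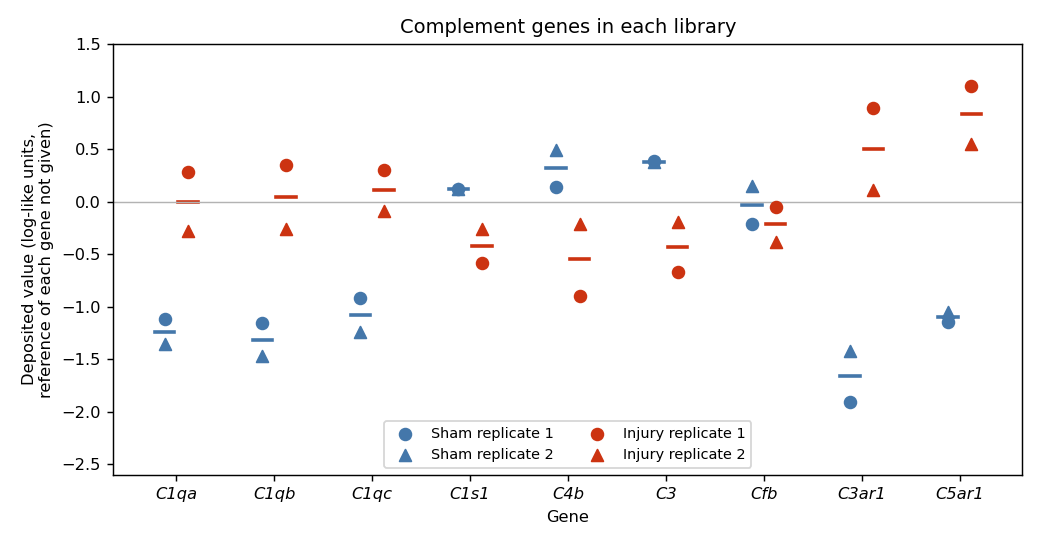
Deposited value (log-like units, vertical axis) of each complement gene in the 4 libraries, with sham in blue and injury in red, replicate 1 as circles, replicate 2 as triangles and group means as short lines. The injury libraries lie above the sham libraries for *C1qa*, *C1qb*, *C1qc*, *C3ar1* and *C5ar1*, below them for *C1s1*, *C4b* and *C3*, and overlap them for *Cfb*.

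The promoters of *C1qb* and *C1qc* are shown because these neighbouring genes moved together, and that of *C3* because its values after injury were below those after sham operation. The sequences are those of RefSeq (GRCm38.p6), from 250 bases before to 50 after the start of the gene. Each was found in mm9, the build to which the reads were aligned, by 1 exact match, and all are read from the minus strand. Capitals mark matches, on either strand, to any of 5 motifs, the PU.1 core GAGGAA, the NF-kB motif (GGGA, any base, TTTCC), the C/EBP motif TTGCNNAA, the interferon-type motif (GAAA, any 2 bases, GAAA) and the STAT motif TTCNNNGAA. The lines cover chr4:136442066-136442365 for *C1qb*, chr4:136448780-136449079 for *C1qc* and chr17:57367510-57367809 for *C3*.
C1qb: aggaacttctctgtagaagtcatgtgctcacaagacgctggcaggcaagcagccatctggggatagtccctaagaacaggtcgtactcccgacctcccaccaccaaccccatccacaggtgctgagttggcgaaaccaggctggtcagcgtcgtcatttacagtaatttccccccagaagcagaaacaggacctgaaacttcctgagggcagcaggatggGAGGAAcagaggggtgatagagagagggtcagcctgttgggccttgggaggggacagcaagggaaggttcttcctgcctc
C1qc: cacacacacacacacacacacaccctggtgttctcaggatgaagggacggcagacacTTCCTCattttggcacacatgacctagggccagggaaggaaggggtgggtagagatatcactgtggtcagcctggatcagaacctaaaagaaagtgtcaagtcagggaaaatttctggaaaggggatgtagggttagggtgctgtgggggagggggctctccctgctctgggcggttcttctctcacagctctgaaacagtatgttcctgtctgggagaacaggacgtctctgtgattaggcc
C3: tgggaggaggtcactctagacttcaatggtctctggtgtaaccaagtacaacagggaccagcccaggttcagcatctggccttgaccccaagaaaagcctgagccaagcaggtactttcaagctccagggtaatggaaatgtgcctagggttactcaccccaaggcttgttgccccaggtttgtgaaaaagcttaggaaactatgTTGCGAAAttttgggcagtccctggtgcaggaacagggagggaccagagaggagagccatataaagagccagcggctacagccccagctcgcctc

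The PU.1 core, read by a transcription factor of myeloid cells, stood 30 bases before the start of *C1qb* and, on the opposite strand, 193 bases before that of *C1qc*. The C/EBP motif stood 45 bases before the start of *C3*, and none of the other motifs matched in these 3 windows. Of the 6 genes with a promoter in the RefSeq table, the PU.1 core was in 2, near its share of all promoters (28.3% of 32851 of this length). The C/EBP motif was also in 2, *C3* and *C1s1* (10.8% of all promoters). The windows of *C3ar1* and *C5ar1* held no match to any of the 5 motifs, and the NF-kB, interferon-type and STAT motifs, found in 0.411%, 3.44% and 8.3% of all promoters, matched in 0 of the 6. These distances are counted from the RefSeq start. For each of these genes except *C3* that start differs from the one in the GENCODE coordinates given with the genes, and for *C1qc*, *C3ar1*, *C5ar1* and *C1s1* it lies inside the GENCODE gene. The motif of *C1qc* is thereby nearer to the GENCODE start, and the window of *C1s1* with its C/EBP match is far from it. A match is a string of letters and is not evidence of binding. *C1qa*, *C4b* and *Cfb* had no entry.

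C1q, the recognition molecule of the classical pathway, is built from the products of *C1qa*, *C1qb* and *C1qc*. These lie side by side on the minus strand of chromosome 4 of mm9, *C1qb* from 136436044 to 136442102, *C1qc* from 136445719 to 136448980 and *C1qa* from 136451832 to 136454718, a stretch of 18.7 kb in all. *C1qa* was at -1.12 and -1.36 in the sham libraries and at 0.28 and -0.28 in the injury libraries. *C1qb* was at -1.16 and -1.47 after sham operation and at 0.35 and -0.26 after injury. *C1qc* was at -0.92 and -1.24 after sham operation and at 0.30 and -0.085 after injury. For each chain the injury libraries were higher than both sham libraries with no overlap, and injury replicate 1 was above injury replicate 2. The differences were 1.24 for *C1qa* (standard error 0.22, 95% interval 0.67 to 1.80, adjusted p = 0.0401), 1.36 for *C1qb* (0.24, 0.75 to 1.97, adjusted p = 0.0384) and 1.19 for *C1qc* (0.20, 0.69 to 1.69, adjusted p = 0.0345).

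The gap between the injury libraries, 0.56 for *C1qa*, 0.61 for *C1qb* and 0.38 for *C1qc*, was larger than that between the sham libraries, which was 0.23, 0.31 and 0.32. It was smaller than the injury difference of each chain. Quantile normalization of the columns ended the limma call of *C1qa* (adjusted p = 0.0535) and *C1qb* (adjusted p = 0.0516), and setting the columns to an equal spread ended that of *C1qa* (adjusted p = 0.0517). Over the alternatives fitted to all libraries the adjusted p-values ran from 0.0365 to 0.0535 for *C1qa*, from 0.0358 to 0.0516 for *C1qb* and from 0.0344 to 0.0436 for *C1qc*.

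**Figure D2:**
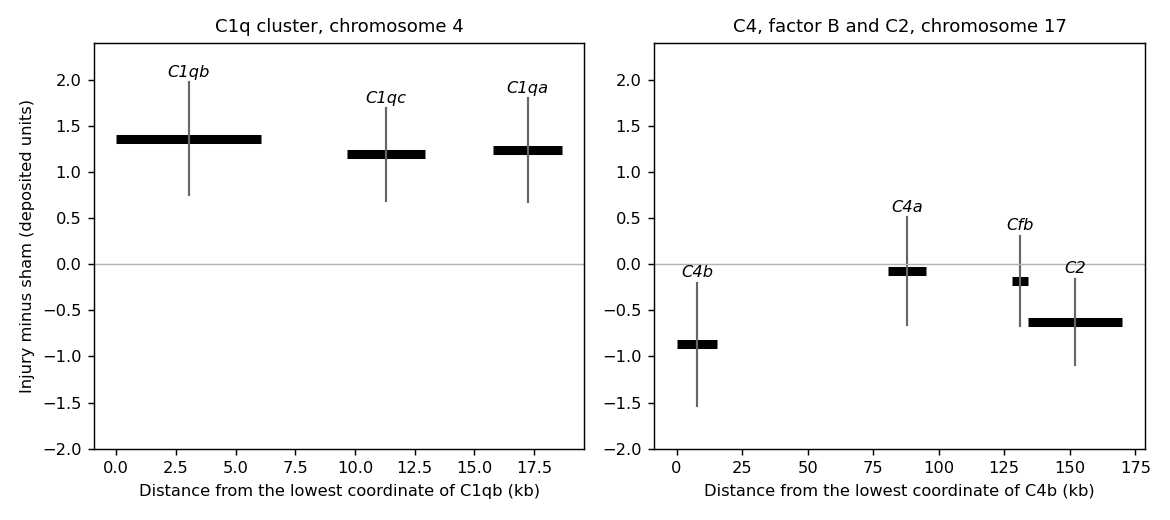
Injury minus sham (deposited units, vertical axis) for the C1q genes on chromosome 4 and for the C4, factor B and C2 genes on chromosome 17, drawn at their distance (kb, horizontal axis) from the lowest coordinate of the leftmost gene. Thick bars span the genes and thin lines are 95% intervals from limma. The 3 C1q genes lie between 1.19 and 1.36, and the genes on chromosome 17 between -0.87 and -0.075.

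The anaphylatoxin receptors had the highest differences of the set. *C3ar1*, the receptor gene for C3a on chromosome 6 from 122797156 to 122806179, was at -1.91 and -1.42 after sham operation and at 0.89 and 0.11 after injury. Its difference was 2.16 units (standard error 0.31, 95% interval 1.39 to 2.93, adjusted p = 0.0291). *C5ar1*, the receptor gene for C5a on chromosome 7 from 16832092 to 16844889, was at -1.15 and -1.05 after sham operation and at 1.10 and 0.55 after injury, a difference of 1.93 (standard error 0.21, 95% interval 1.40 to 2.47, adjusted p = 0.0285). Neither receptor overlapped between the groups, and injury replicate 1 exceeded injury replicate 2 by 0.78 for *C3ar1* and 0.55 for *C5ar1*. Over the alternatives fitted to all libraries both kept their call, with adjusted p-values of 0.0207 to 0.0394 for *C3ar1* and 0.0200 to 0.0358 for *C5ar1*.

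*C3*, the component on which all pathways converge, lies on chromosome 17 from 57343397 to 57367559. It was at 0.39 and 0.38 in the sham libraries and at -0.67 and -0.19 in the injury libraries. Both injury libraries were thus below the sham libraries, which were nearly equal, and the injury libraries were 0.49 units apart. The difference of -0.81 (standard error 0.20, 95% interval -1.30 to -0.32) did not pass the threshold (adjusted p = 0.0660).

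*C4b*, the gene of the C4 protein that C1s cleaves, lies on chromosome 17 from 34865325 to 34880827. It was at 0.14 and 0.49 after sham operation and at -0.90 and -0.21 after injury. Both injury libraries were lower, and the difference of -0.87 (standard error 0.27, 95% interval -1.54 to -0.20) did not pass the threshold (adjusted p = 0.105). *C4a*, its close copy in the same cluster, was at 0.0075 and 0.040 after sham operation and at -0.37 and 0.27 after injury, with overlapping groups. The counting could have split reads between these copies, so the values of both are uncertain.

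*Cfb* lies on chromosome 17 from 34993319 to 34999463. Its values were -0.21 and 0.15 after sham operation and -0.049 and -0.38 after injury. The groups overlapped, and the difference of -0.18 (95% interval -0.67 to 0.31, adjusted p = 0.588) was smaller than the gap between the replicates of either group. *C2*, the classical pathway counterpart of *Cfb* and its neighbour, was at 0.18 and 0.38 after sham operation and at -0.54 and -0.15 after injury (difference -0.63, adjusted p = 0.0970). An annotated gene model, *Gm20547*, overlaps both *Cfb* and *C2* on the same strand, and how reads there were assigned is not stated.

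*C1s1*, on chromosome 6 within the annotated span from 124480363 to 124586998, encodes the C1s protease. It was at 0.12 and 0.12 after sham operation and at -0.58 and -0.26 after injury. The partner protease gene *C1ra* was at 0.19 and 0.26 after sham operation and at -0.43 and -0.35 after injury. For both genes the injury libraries were lower with no overlap, and neither difference passed the threshold (-0.54, adjusted p = 0.102 for *C1s1*, and -0.61, adjusted p = 0.0546 for *C1ra*), although *C1ra* did with the columns set to an equal spread (adjusted p = 0.0496). The span of *C1s1* overlaps *Gm5077* on its own strand, and *C1ra* overlaps the annotated copy *C1rb*, so their reads may be shared.

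Across a wider list of 58 complement genes, 34 were measured, of which 8 were called higher and 6 lower by limma, against 3.76% and 3.67% of all genes. The median difference of the 34 was -0.26 units, against 0.0085 over all genes. Among 8 measured receptor genes 5 were called higher and 0 lower, with 0 lower also at an unadjusted p-value under 0.05 (14.8% of all genes, so that 0 of 8 is near the background). Besides *C3ar1* and *C5ar1* these were the chains of the integrins that bind cleaved C3, *Itgam* (1.61, adjusted p = 0.0291), *Itgb2* (1.48, adjusted p = 0.0291) and *Itgax* (1.32, adjusted p = 0.0301). *C5ar2*, the second C5a receptor and the neighbour of *C5ar1*, was at -0.80 and -0.59 after sham operation and at 1.07 and 0.0034 after injury, and its difference of 1.23 missed the threshold (adjusted p = 0.0907). *Cd93*, also known as a C1q receptor but used by endothelial cells, overlapped between the groups (0.038, adjusted p = 0.918).

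The measured genes of both regulator lists had lower means after injury. Of 5 measured membrane regulators 2 were called lower and 0 higher (3.67% and 3.76% of all genes), and among the soluble regulators *Clu* and *Serping1* were called lower and none higher. No regulator in either list was higher at an unadjusted p-value under 0.05, where 14.8% of all genes were, a share at which few or none would be met in lists this short. *Clu*, which encodes clusterin, a blocker of the terminal complex, differed by -1.57 (adjusted p = 0.0285), and *Serping1*, which encodes the inhibitor of C1r and C1s, by -1.03 (adjusted p = 0.0291). On the membrane side *Cd55*, which encodes decay-accelerating factor, differed by -1.26 (adjusted p = 0.0291) and *Csmd1* by -1.03 (adjusted p = 0.0291). *Vtn*, *Cd59a*, *Cd59b* and *Cr1l* had differences from -0.40 to -0.21 and were not called.

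For the remaining lists the shares of all genes to set beside the counts are 3.76% called higher and 3.67% called lower, and 14.8% in each direction at an unadjusted p-value under 0.05. In the classical list 3 of 8 measured genes, the C1q chains, were called higher and 0 lower, where 4 were lower at an unadjusted p-value under 0.05. In the lectin pathway list 1 of 4, the scavenger collectin gene *Colec12* (-1.24, adjusted p = 0.0291), was called lower and 0 higher (0 also at an unadjusted p-value under 0.05), and *Masp2* had the highest difference of that list (0.10, adjusted p = 0.663). In the alternative pathway list 0 of 4 were called by limma, with 1 higher and 2 lower at an unadjusted p-value under 0.05. *Cfp*, which encodes properdin, a stabilizer of the C3 convertase known from myeloid cells, had a difference of 0.79 (adjusted p = 0.0716), and *Cfd*, the adipocyte product adipsin that cleaves factor B, one of -0.77 (adjusted p = 0.158). Of the terminal components only *C8g* was measured (0.49, adjusted p = 0.0970), and *Hc*, the gene of C5, was not among the measured genes.

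**Figure D3:**
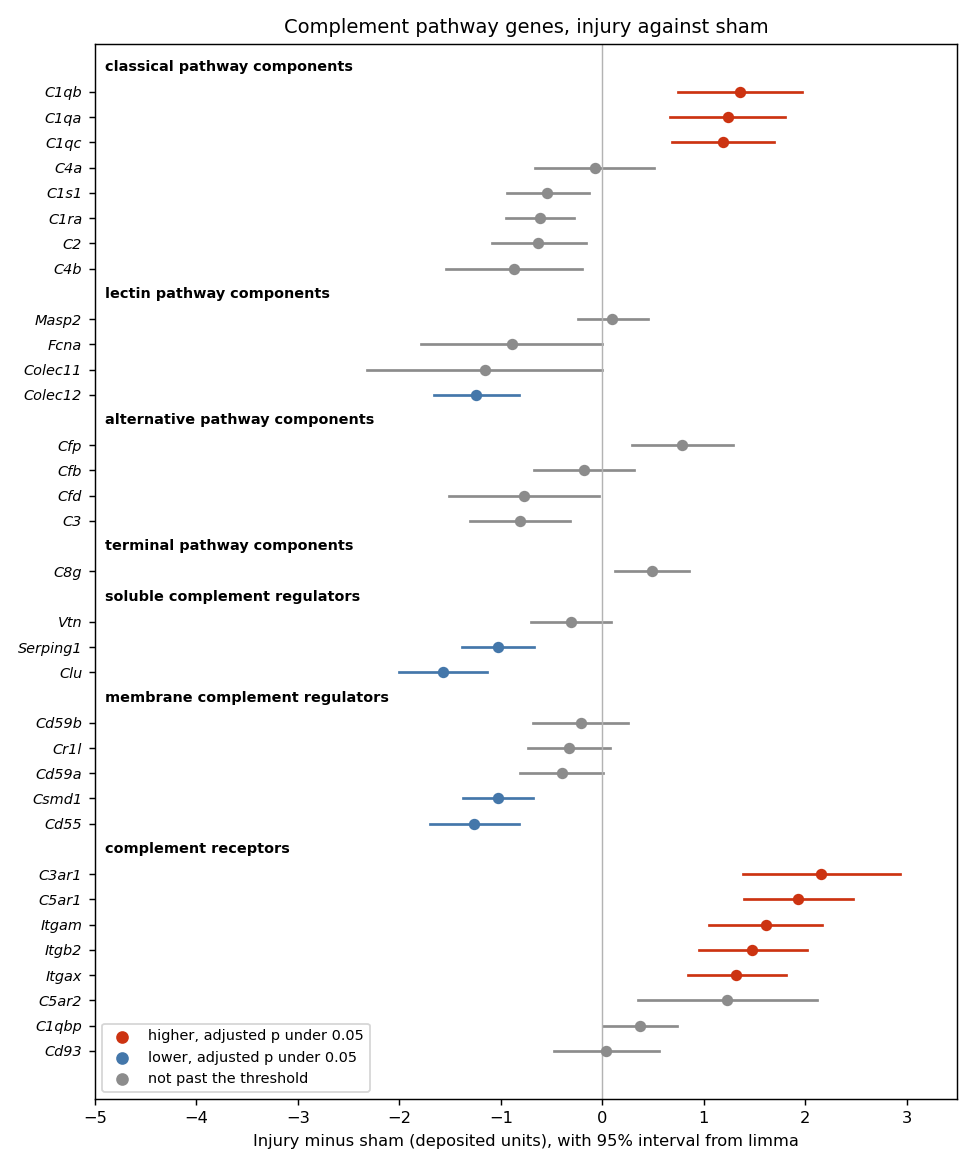
Injury minus sham (deposited units, horizontal axis) for the measured complement genes reported here, grouped by role, with 95% intervals from limma. Red marks genes called higher, blue genes called lower and grey genes not past the threshold. Receptors and the C1q chains lie to the right of 0, and soluble and membrane regulators to the left.

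The genes with values most like those of the complement genes were found by Euclidean distance over the 4 libraries among all 12661 genes. For *C1qa* the nearest were *Fcgr3* (distance 0.08 units), an Fc receptor gene, *Csf1r* (0.14), the receptor gene for the macrophage growth factor CSF1, and *C1qb* (0.15). For *C1qb* they were *Fcgr3* (0.10), *C1qa* (0.15) and *Csf1r* (0.17). For *C1qc* they were the MHC class II gene *H2-Aa* (0.13), the chemokine gene *Pf4* (0.21) and the class II gene *H2-Ab1* (0.22). The receptors had other neighbours, *Tlr13* (0.24), *Ly86* (0.25) and *Cd52* (0.31) for *C3ar1*, and *Gpr141* (0.12), *Fam105a* (0.22) and *Fgr* (0.23) for *C5ar1*. The values of *C3* were nearest to those of *Kcns3* (0.077), *Sulf2* (0.080) and *Nrarp* (0.12), and those of *C4b* to *Gabra3* (0.12), *Ghr* (0.14) and *Bmp3* (0.20). The nearest to *Cfb* were *Myef2* (0.034), *Elovl1* (0.075) and *Chd3os* (0.10), and the nearest to *C1s1* were *Wbscr27* (0.088), *Map3k10* (0.10) and *Gstt1* (0.11). The distance also depends on the reference of each gene, which is not given, and over 4 libraries this likeness is a description.

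Some markers of myeloid cells were also called higher, where 3.76% of all genes were. Of 10 macrophage markers 3 were called higher and 0 lower, their differences ran from -0.81 (*Cd163*, adjusted p = 0.191) to 2.14 (*Fcgr1*, adjusted p = 0.0449), and the mean of the list was -0.82 and -0.77 in the sham libraries and 0.26 and -0.15 in the injury libraries. The means of the 3 C1q chains were -1.07 and -1.36 in the sham libraries and 0.31 and -0.21 in the injury libraries. *C5ar1* is also used by neutrophils. Of 6 neutrophil markers 2 were called higher, and the list mean was -1.35 and -0.94 after sham operation and 1.29 and 0.20 after injury. Of 7 recruited monocyte markers 1, *Ccr2*, was called higher, and the mean was -0.99 and -0.50 after sham operation and 0.79 and 0.024 after injury. Of 7 resident macrophage markers 0 were called by limma (3 higher and 2 lower at an unadjusted p-value under 0.05), and the mean was -0.25 and -0.54 after sham operation and -0.50 and -0.35 after injury, with overlapping groups.

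Among markers of other cells some were called lower, where 3.67% of all genes were. Of 9 fibroblast markers 3 were called lower, and the mean was 0.26 and -0.20 after sham operation and -0.70 and -0.27 after injury. Of 8 adipocyte markers 1, *Plin1*, was called lower, with a mean of 0.25 and 0.38 after sham operation and -0.17 and 0.20 after injury. Of 8 endothelial markers 2 were called lower and 0 higher, with a mean of 0.63 and 0.69 after sham operation and -0.22 and -0.16 after injury. Of 6 smooth muscle markers 4 were called lower and 0 higher, with a mean of 1.5 and 0.89 after sham operation and -1.19 and -0.19 after injury. Of 5 mast cell and 7 skeletal muscle markers 0 were called by limma (0 and 3 lower, 0 and 0 higher at an unadjusted p-value under 0.05), and neither was the 1 epithelial marker measured, *Cdh1*. The skeletal muscle mean was 0.68 and -0.14 after sham operation and -0.32 and -0.38 after injury, with no overlap. The liver is the main source of plasma complement, and 0 of the 6 hepatocyte markers were measured. All 8 adipocyte markers of the list were measured, but values on this scale do not show how abundant they are. The part of any of these cell types in the complement results was not tested.

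**Figure D4:**
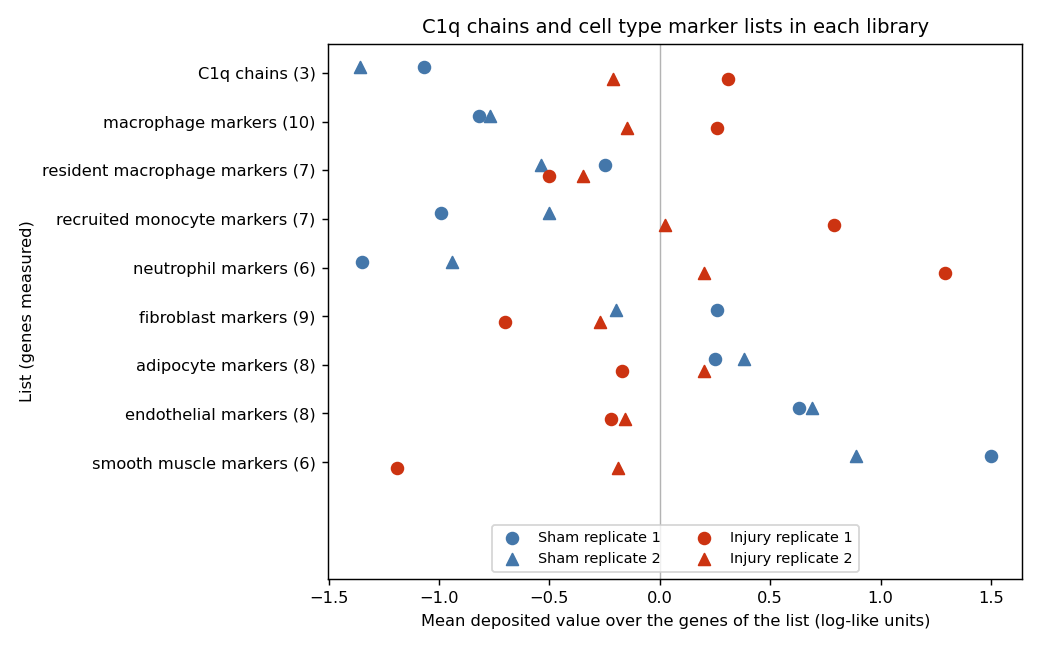
Mean deposited value (log-like units, horizontal axis) over the C1q chains and over the cell type marker lists drawn (number of genes measured in brackets) in the 4 libraries, with sham in blue, injury in red, replicate 1 as circles and replicate 2 as triangles. The C1q chains, macrophage, recruited monocyte and neutrophil markers are higher in both injury libraries, and fibroblast, adipocyte, endothelial and smooth muscle markers are lower.

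With 2 libraries per group the calls rest on the spread that limma shares across genes, since the smallest p that exact permutation allows for 1 gene is 0.333. For the 5 genes called higher, injury replicate 1 lay above injury replicate 2, and for *C3* and *C4b* below it. Without injury replicate 1, 2 of the 8 genes, *C3ar1* and *C5ar1*, were called higher, and the differences of *C3* (-0.57, adjusted p = 0.129) and *C4b* (-0.52, adjusted p = 0.219) were smaller in size. Of all genes 181 were then called higher and 103 lower, against 476 and 465 with every library. Without injury replicate 2 the count was 5 higher and 2 lower, the latter being *C3* (-1.05, adjusted p = 0.0186) and *C4b* (-1.22, adjusted p = 0.0243), while of all genes 943 were called higher and 847 lower. Without sham replicate 1 or without sham replicate 2 limma called 0 of the 8 genes, though all 5 were still higher at an unadjusted p-value under 0.05, as were 981 and 1218 of all 12661 genes. Of all genes it then called 0 and 1.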

How the data were processed

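RNA-seq was compared between 2 sham and 2 injury libraries of PVAT around the femoral artery. Per the labels and the methods of the study, the authors used FastQC 0.11.8, cutadapt 1.18, Trimmomatic 0.39, STAR 2.6.0a on mm9, featureCounts, DESeq2 1.28.0 and R 3.6.0. The values they deposited are not counts but a signed score per gene and library on a log-like scale. How it was made from counts is not given in the sources used here, nor its base, its centre or the filter that left 12661 genes, and depth is unknown.

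From these values, limma 3.58.1 in R 4.3.3 was fitted to all 4 libraries (lmFit and eBayes, group as the only term, prior degrees of freedom 3.48, residual 2), with Benjamini-Hochberg adjustment over 12661 genes and a threshold of 0.05. No low-value filter was possible. The test was checked on simulated data. All 8 genes matched by row name and *C1s1* by synonym are named with their values, together with genes of the complement lists that were called or had the highest or lowest difference of their list, and the 3 nearest genes by Euclidean distance. A result that this rule would name is not reported here, in the text or the plots, but stays in the counts. The genes and lists were chosen with earlier results of these data known. The alternatives were an adjusted p-value threshold of 0.1, leaving out each library, a replicate block, counting the 28 identical rows once, quantile normalization, setting the columns to an equal spread and a robust prior for the variance. Coordinates are from GENCODE on mm9, which held all 34 measured complement genes. Tables and plots were made with pandas 2.3.3, numpy 2.4.6 and matplotlib 3.10.9 in Python 3.11.15.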

Additional observations from a re-analysis of the deposited data

How the results depend on the processing

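Depth and abundance are unknown, so no limit of detection can be given, and filters, pseudocounts and count models could not be applied to these values. Among the 24 complement genes followed through the alternatives, no direction turned in any fit to all 4 libraries. The number of complement set genes called higher was 5, 4 with the columns set to an equal spread and 3 after quantile normalization (the cause was not tested). At an adjusted p-value threshold of 0.1, 1 gene of the set, *C3*, was called lower, and 1166 of all genes were called higher and 1151 lower, which follows from the threshold. Samples of the 2 groups shared replicate numbers only, and the deviations of same-numbered samples had a correlation of -0.094 over genes. With the replicate block 303 genes in all were called lower, against 465 without it, and no call changed among the 24 genes.

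With 1 library left out at a time, the lone sample of a group was assumed to vary like the others. Over these fits 0 to 943 of all genes were called higher and 0 to 847 lower, 0 to 5 of the complement set higher and 0 to 2 lower, and 0 to 10 of the 34 complement genes higher and 0 to 11 lower. The difference of *Cfb* ran from -0.36 to 0.0 and that of *Cd93* from -0.15 to 0.23, so neither had a stable sign.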
